A study of Mus musculus with 12 samples.

Results

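The genes described here are those of liver glycogen turnover: the enzymes Ugp2, Gyg, Gys2, Gbe1 and Pygl, the phosphorylase kinase subunit Phka2, and the glycogen-targeting phosphatase subunits Ppp1r3b, Ppp1r3c and Ppp1r3g. These 9 symbols were looked up among the array rows whose platform annotation names exactly 1 gene, out of 19938 genes with such a row. Each of the 9 had 1 row, and all 9 were among the 14953 genes left for testing after the dimmest 25% had been set aside. Liver RNA came from mice of 7 weeks on a mixed C57BL/6 and NMRI background, crossed back to C57BL/6 at least 4 times. The 3 groups of 4 animals were wild type controls, transgenic mice in which the LAP promoter drives constitutively active FoxO3, and mice carrying that same transgene that were given metformin. This promoter is used to drive transgenes in hepatocytes, so the other cells of the liver are not its intended site. FoxO3, of the forkhead family of transcription factors, is kept out of the nucleus by insulin signalling, and metformin is a biguanide that lowers blood glucose. No wild type animals given metformin, no dose and no sex are given in the labels.

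Glycogen is the glucose store of the liver. Ugp2 makes UDP-glucose, glycogenin (Gyg) primes the chain, glycogen synthase (Gys2 in liver) lengthens it and the branching enzyme Gbe1 adds branch points. Glycogen phosphorylase (Pygl in liver) takes glucose units off again and is switched on by phosphorylase kinase, of which Phka2 is the liver form of the alpha subunit. The Ppp1r3 proteins tether protein phosphatase 1 to glycogen, where it activates the synthase and inactivates phosphorylase. Ppp1r3b is the main hepatic targeting subunit, Ppp1r3c is the subunit also called PTG, and Ppp1r3g is a subunit tied to the fasting and feeding cycle.

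The values are log2 signals, so a step of 1 is a doubling, and they can be compared between livers for the same gene but not between genes. The array medians lay between 5.69 and 5.85. The X-inactivation RNA Xist was high in the 4 metformin-treated livers and in wild type replicates 1 and 4, between 10.57 and 11.95, and low in the 4 transgenic livers and in wild type replicates 2 and 3, between 4.24 and 4.70. Metformin treatment and the sex-linked signal therefore cannot be told apart between the transgenic groups, and a sex covariate (Xist minus Y-linked signal) could be estimated only through the wild type livers. Across genes, the profile of transgenic replicate 2 was nearer to wild type livers (mean r = 0.984) than to the other transgenic livers (0.968). Metformin-treated replicate 3 stood furthest from the rest of its group (0.974). Foxo3 itself read 8.77 ± 0.16 (SD, n = 4) in wild type, 8.82 ± 0.16 in transgenic and 8.80 ± 0.36 in metformin-treated livers, and whether its array row detects the transgene is not stated, so it checks no label. The reference gene Igfbp1 lay between 8.66 and 9.64 in wild type livers and 9.75 and 10.72 in metformin-treated livers. In transgenic replicates 1 to 4 it read 13.52, 10.09, 13.54 and 13.35. The reference gene Pdk4 lay between 7.16 and 8.07 in wild type livers and 6.99 and 9.33 in metformin-treated livers. In transgenic replicates 1 to 4 it read 12.28, 8.96, 12.67 and 12.17. Hepatocyte markers were bright in every liver, with a mean over 6 tested markers between 13.34 and 13.50. Of those 6, 2 fell in transgenic against wild type livers in limma, against 6.15% of all tested genes. They were Ttr (-0.44, adjusted p = 0.0166) and Apoc3 (-0.24, adjusted p = 0.0385). Ttr rose in metformin-treated against transgenic livers (0.40, adjusted p = 0.0128 in limma), where 10.6% of all tested genes were higher. With the sex covariate limma called 0 of the 6 in either comparison. The part of these markers in the results below was not tested. Fewer cells of a type and less RNA per cell cannot be told apart in whole liver. The mean over 6 Kupffer cell markers lay between 8.18 and 8.92 in wild type, 8.79 and 9.67 in transgenic and 8.22 and 8.88 in metformin-treated livers. Of those 6, 4 rose in transgenic against wild type livers in limma, against 7.97% of all tested genes. In metformin-treated against transgenic livers 4 of the 6 fell, against 14.1%. With the sex covariate limma called 4 of the 6 in the first comparison (4.35% of tested genes) and 0 in the second (0.548%). The part of these markers in the results below was not tested. The mean over 5 skeletal muscle markers lay between 5.87 and 6.08 in all livers, and 0 of the 5 were called in any comparison by limma (0, 2 and 0 at an unadjusted p under 0.05).

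**Figure D1:**
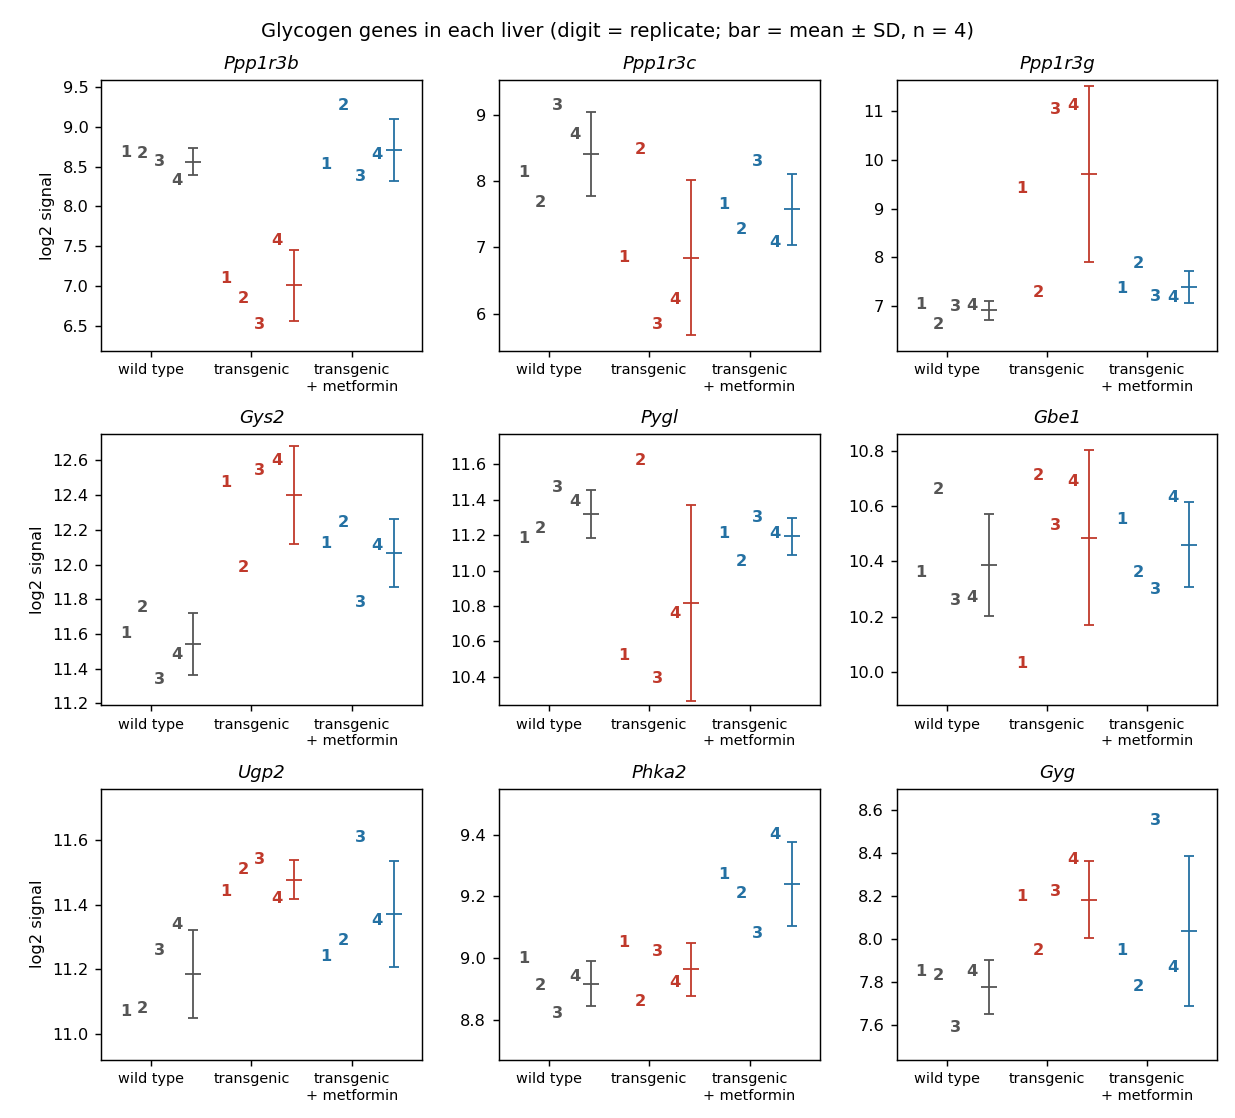
Log2 signal of the 9 glycogen genes in each of the 12 livers, 1 panel per gene with its own axis range; digits are replicate numbers, and the bar beside each group is the mean with its SD (n = 4). Ppp1r3b is low in all 4 transgenic livers (6.52 to 7.57), while Ppp1r3g is high in transgenic replicates 1, 3 and 4 and reads 7.28 in replicate 2.

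The glycogen-targeting subunits differed most. Between transgenic and wild type livers Ppp1r3b fell by 1.55 on the log2 scale, 2.93-fold, and Ppp1r3g rose by 2.80, 6.96-fold. The synthase gene Gys2 rose by 0.86, 1.81-fold. These 3 of the 9 genes passed an adjusted p of 0.05 in limma, 2 higher and 1 lower, against 14.1% of all 14953 tested genes (7.97% higher and 6.15% lower). The median of the absolute log2 difference was 0.50 over the 9 genes and 0.17 over all tested genes. The arrays of the groups did not overlap for 5 of the 9, Ppp1r3b, Ppp1r3g, Gys2, Ugp2 and Gyg, against 21.9% of tested genes. The 9 genes and the lists below were chosen with earlier results of these data known. Setting them against all tested genes is therefore a description, and whether glycogen genes stand out was not tested.

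Ppp1r3b, which ties the phosphatase to liver glycogen, read 8.68, 8.67, 8.57 and 8.32 in wild type replicates 1 to 4 and 7.10, 6.85, 6.52 and 7.57 in the transgenic replicates. All 4 transgenic livers, replicate 2 among them, lay below every wild type liver. The difference was -1.55 ± 0.22 (limma, ± SE, 4 livers in each group, adjusted p = 0.00259) with a 95% interval from -2.04 to -1.07. It was called in each of the 12 fits that left out 1 array, and with the sex covariate (-1.59, adjusted p = 0.0168 in limma), in a fit that called 4.35% of tested genes and, of the 9, Ppp1r3b and Gys2. With only the 4 transgenic and 2 wild type livers of low Xist the difference was -1.61 and no longer passed (adjusted p = 0.106 in limma), in a fit that called 9 genes in all.

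Ppp1r3g read 7.03, 6.62, 6.99 and 7.02 in wild type livers and 9.41, 7.28, 11.04 and 11.11 in transgenic livers. Replicates 3 and 4 were highest, replicate 1 lay between, and replicate 2 lay 0.25 above the brightest wild type liver. The difference of 2.80 ± 0.65 (adjusted p = 0.0183 in limma) had an interval from 1.38 to 4.22. The SD was 1.80 in transgenic and 0.20 in wild type livers, and limma estimated 1 spread for the 3 groups, so this SE can be too small for the comparison. Without transgenic replicate 2 the difference was 3.61 (adjusted p = 5.13e-05 in limma). The call ended without transgenic replicate 3 (2.36, adjusted p = 0.0608), with the sex covariate (2.96, adjusted p = 0.0609) and with the low-Xist livers alone (2.91, adjusted p = 0.210), all in limma.

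Ppp1r3c, the third targeting subunit, read 8.13, 7.68, 9.13 and 8.70 in wild type livers. Its transgenic values were 6.85, 8.48, 5.84 and 6.21, so replicate 2 lay inside the wild type range and the other 3 below it. The difference of -1.56 ± 0.51 did not pass (adjusted p = 0.0593 in limma). Its size was that of Ppp1r3b, but its SD reached 1.17 in transgenic and 0.63 in wild type livers. Without transgenic replicate 2 it was -2.11 (adjusted p = 0.0017 in limma), and without metformin-treated replicate 3 it also passed (adjusted p = 0.0447).

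**Figure D2:**
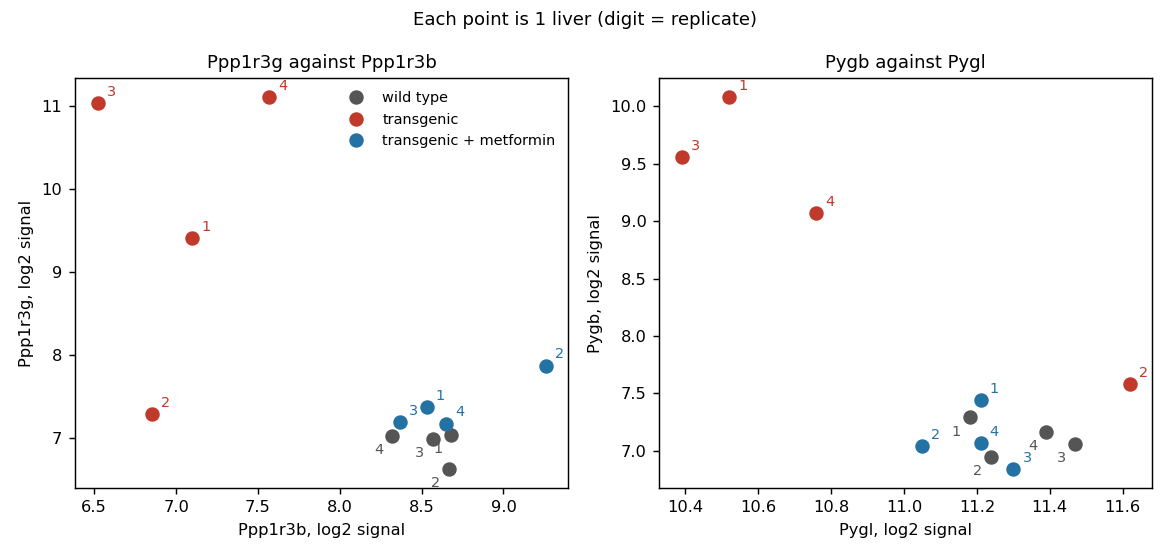
Log2 signal of Ppp1r3g against Ppp1r3b (left) and of the brain phosphorylase Pygb against the liver phosphorylase Pygl (right); each point is 1 liver of the wild type, transgenic or metformin-treated transgenic group, with its replicate number. Transgenic replicate 2 has the low Ppp1r3b (6.85) of its group but a Ppp1r3g of 7.28, and it has the highest Pygl of all 12 livers (11.62).

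RefSeq's promoter table for GRCm38.p6 held 7 of the 9 genes in 8 windows of 300 bases, which run from 250 before to 50 after a gene start; Ppp1r3b and Gys2 were not among them. The FoxO-type letters TGTTTAC were looked for on both strands and occurred in 0 of the 8 windows, against 3.65% of all 32851 windows. TGTTTTG occurred in 0 of 8, against 6.28%. The shorter TGTTT, which the other letter strings contain, was added after seeing this and occurred in 2 of 8, those of Gbe1 and of 1 Ugp2 start, against 50.5% of all windows. The absence of these letters holds for these windows only. The 250 bases before the start are shown for the 2 genes of the table that were called in a comparison. They are Ppp1r3g, with the largest difference, at chr13:35967656-35967905 on the plus strand, and Phka2 at chrX:160501912-160502161 on the plus strand. Capitals would mark TGTTT or its reverse complement, and neither stretch has any.
Ppp1r3g: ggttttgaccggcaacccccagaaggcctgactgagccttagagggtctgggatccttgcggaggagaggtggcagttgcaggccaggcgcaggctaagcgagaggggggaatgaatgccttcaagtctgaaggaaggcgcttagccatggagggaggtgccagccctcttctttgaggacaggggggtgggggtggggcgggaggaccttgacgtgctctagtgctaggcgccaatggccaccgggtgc
Phka2: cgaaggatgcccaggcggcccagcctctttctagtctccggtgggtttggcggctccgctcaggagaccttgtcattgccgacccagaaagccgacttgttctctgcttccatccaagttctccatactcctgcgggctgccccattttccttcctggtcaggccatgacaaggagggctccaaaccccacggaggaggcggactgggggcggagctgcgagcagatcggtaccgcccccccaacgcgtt
The Ppp1r3g stretch is 63.2% G and C and the Phka2 stretch 62.8%.

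Among the enzymes of glycogen synthesis, Gys2 read 11.60, 11.75, 11.34 and 11.48 in wild type livers and 12.47, 11.98, 12.54 and 12.60 in transgenic livers. Transgenic replicate 2 was the lowest of its group and still above every wild type liver. The difference was 0.86 ± 0.15 (adjusted p = 0.00556 in limma, interval 0.54 to 1.17). It was called in each of the 12 fits without 1 array and with the sex covariate (0.88, adjusted p = 0.0302), but not with the low-Xist livers alone (0.85, adjusted p = 0.157).

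Ugp2, the source of UDP-glucose, read 11.07, 11.08, 11.26 and 11.34 in wild type and 11.44, 11.51, 11.54 and 11.42 in transgenic livers. All transgenic values were above all wild type values, by a difference of 0.29 ± 0.095 that did not pass (adjusted p = 0.0594 in limma). It passed when metformin-treated replicate 3, which takes no part in this comparison but adds to the pooled spread, was left out (adjusted p = 0.0218). Gyg, the primer, read 7.85, 7.83, 7.59 and 7.85 in wild type and 8.20, 7.95, 8.22 and 8.37 in transgenic livers, again without overlap. Its difference of 0.41 ± 0.15 did not pass (adjusted p = 0.0964 in limma). It passed without transgenic replicate 2 (0.49, adjusted p = 0.0431) and without metformin-treated replicate 3 (adjusted p = 0.017). The branching enzyme gene Gbe1 had a wild type range of 10.26 to 10.66 inside its transgenic range of 10.03 to 10.71. Its difference was 0.10 ± 0.15, with an interval from -0.23 to 0.43.

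On the side of breakdown, the liver phosphorylase Pygl read 11.18, 11.24, 11.47 and 11.39 in wild type livers and 10.52, 11.62, 10.39 and 10.76 in transgenic livers. Transgenic replicates 1, 3 and 4 lay below every wild type liver and replicate 2 above all of them. The difference of -0.50 ± 0.21 did not pass (adjusted p = 0.127 in limma). Without replicate 2 it was -0.77 (adjusted p = 4.81e-04 in limma). The kinase subunit Phka2 averaged 8.92 ± 0.074 (SD, n = 4) in wild type and 8.96 ± 0.085 in transgenic livers, which overlapped, with a difference of 0.047 ± 0.082 with an interval from -0.13 to 0.23.

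Without transgenic replicate 2, 6 of the 9 genes were called between transgenic and wild type livers, 3 higher (Ppp1r3g, Gys2 and Gyg) and 3 lower (Ppp1r3b, Ppp1r3c and Pygl), against 26.8% of all tested genes in that fit. The number was also 6 without metformin-treated replicate 3, in a fit that called 3254 of all tested genes. In the other fits without 1 array it was between 2 and 3, and these called between 764 and 1825 of all tested genes.

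**Figure D3:**
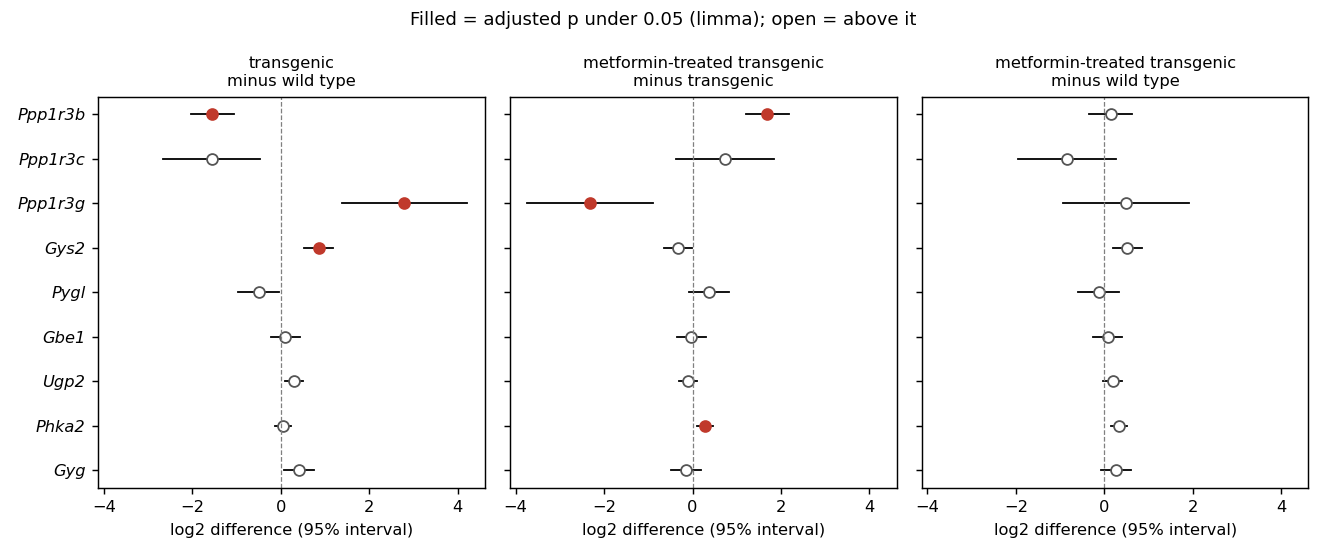
Log2 difference of each of the 9 genes in the 3 comparisons, with its 95% interval from limma (4 livers per group); filled points passed an adjusted p of 0.05. Ppp1r3b and Ppp1r3g are filled on opposite sides of 0 in both comparisons with the untreated transgenic group, and no point is filled between metformin-treated transgenic and wild type livers.

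Metformin-treated transgenic livers were next compared with untreated transgenic livers, which serve in both comparisons, so the opposite signs of a gene in both are not separate evidence. Ppp1r3b rose by 1.69, 3.23-fold, Ppp1r3g fell by 2.31, 4.97-fold, and the kinase subunit Phka2 rose by 0.28, 1.21-fold. These 3 of 9 genes were called, 2 higher and 1 lower, against 24.7% of all tested genes (10.6% higher and 14.1% lower). With the sex covariate 0 of the 9 passed in limma (2 at an unadjusted p under 0.05), in a fit that called 0.548% of tested genes. With the sex covariate and without transgenic replicate 2, 3 of the 9 passed, Ppp1r3b, Ppp1r3g and Pygl, in a fit that called 1845 of all tested genes. The arrays did not overlap for 2 of the 9, Ppp1r3b and Phka2, against 21.6% of tested genes. With only the 8 arrays of these groups 1 of the 9 passed, in a fit that called 2354 of all tested genes. With the trended and robust eBayes setting 2 of the 9 passed, in a fit that called 3636 of all tested genes.

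Ppp1r3b read 8.53, 9.26, 8.37 and 8.65 in the metformin-treated replicates 1 to 4, each above all 4 untreated transgenic livers. The difference was 1.69 ± 0.22 (adjusted p = 5.84e-04 in limma, interval 1.21 to 2.18), and it was called in each of the 12 fits without 1 array. The sex covariate left it at 1.77 ± 0.38 (adjusted p = 0.0552). Within wild type livers, where the sex-linked signal varied without treatment, Ppp1r3b averaged 8.50 in the 2 livers of high Xist and 8.62 in the 2 of low Xist.

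Ppp1r3g read 7.37, 7.87, 7.19 and 7.17 with metformin. The untreated replicates 1, 3 and 4 lay above these, and replicate 2 at 7.28 lay among them. The difference was -2.31 ± 0.65 (adjusted p = 0.0231 in limma), and -3.12 without transgenic replicate 2 (adjusted p = 8.79e-05). The call ended without transgenic replicate 3 (-1.87, adjusted p = 0.0734), without transgenic replicate 4 (-1.85, adjusted p = 0.0643) and without metformin-treated replicate 4 (-2.24, adjusted p = 0.0578). It also ended with only the 8 arrays of these groups (adjusted p = 0.0691) and with the sex covariate (-2.65, adjusted p = 0.214).

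Phka2 lies on the X chromosome. It read 9.27, 9.21, 9.08 and 9.40 with metformin, each above all untreated transgenic livers, for a difference of 0.28 ± 0.082 (adjusted p = 0.029 in limma). In wild type livers it averaged 8.97 in the 2 of high Xist and 8.87 in the 2 of low Xist. With the sex covariate the difference was 0.16 ± 0.14 (adjusted p = 0.541). The call also ended without transgenic replicate 2 (adjusted p = 0.0538) or 4 (0.0703), without metformin-treated replicate 1 (0.0627), 2 (0.0513) or 4 (0.0875), and with each array centred on its median (0.22, adjusted p = 0.0551).

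The other 6 genes did not pass between the transgenic groups. Gys2 read 12.12, 12.24, 11.78 and 12.11 with metformin, of which replicate 3 lay below all untreated transgenic livers and the other 3 lay between their lowest and the rest (-0.33 ± 0.15, adjusted p = 0.118 in limma). Ppp1r3c read 7.64, 7.27, 8.29 and 7.08, above untreated replicates 1, 3 and 4 and below replicate 2 (0.73 ± 0.51, adjusted p = 0.32). Pygl read 11.21, 11.05, 11.30 and 11.21, placed in the same way (0.37 ± 0.21, adjusted p = 0.217). Without transgenic replicate 2 the differences of Gys2 (-0.47, adjusted p = 0.0115 in limma), Ppp1r3c (1.27, 0.0203) and Pygl (0.64, 0.00104) passed, and 5 of the 9 genes were called, against 32.3% of all tested genes. Gyg read 7.95, 7.78, 8.55 and 7.87 with metformin, and replicate 3 was the highest Gyg value of all 12 livers (difference -0.15 ± 0.15). Without that replicate the Gyg difference was -0.32 and passed in limma, in 1 of the 12 fits without 1 array. That fit called 4282 of all tested genes. Ugp2 (-0.11 ± 0.095) and Gbe1 (-0.026 ± 0.15) had intervals that held 0. The sign of Gbe1 changed with quantile normalization, array weights and the sex covariate. The number of called genes among the 9 went to 1 without transgenic replicate 4 and without metformin-treated replicate 4. Those fits called 2941 and 2644 of all tested genes.

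Between metformin-treated transgenic and wild type livers limma called 0 of the 9 genes (2 at an unadjusted p under 0.05, Gys2 and Phka2), against 2.43% of all tested genes (0.99% higher and 1.44% lower). With the sex covariate it called 0 of the 9 (2 at an unadjusted p under 0.05) and 0.0936% of tested genes. Gys2 was higher in every metformin-treated than in every wild type liver, by 0.52 ± 0.15 (adjusted p = 0.0839, interval 0.20 to 0.84). Phka2 was likewise higher without overlap, by 0.32 ± 0.082 (adjusted p = 0.063, interval 0.14 to 0.50). Both passed in the fit without transgenic replicate 2 (adjusted p = 0.0278 and 0.0499 in limma), which called 4.12% of tested genes, and in the fit without metformin-treated replicate 3 (0.0354 and 0.023). Ppp1r3b differed by 0.14, with an interval from -0.34 to 0.63. Ppp1r3g differed by 0.49 with an interval from -0.93 to 1.91, although its lowest metformin-treated value (7.17) was above its highest wild type value (7.03). Its SD was 0.33 in metformin-treated, 0.20 in wild type and 1.80 in untreated transgenic livers. Because limma estimated 1 spread for the 3 groups, this interval can be too wide for the comparison. With only the 8 arrays of the compared groups limma called 0 of the 9 (4 at an unadjusted p under 0.05) and 515 of all tested genes. Groups without overlap made up 14.4% of tested genes here, and 3 of these 9.

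Over the 3 groups at once, limma's moderated F test called 4 of the 9 genes, against 24.2% of all tested genes. They were Ppp1r3b (adjusted p = 0.00102), Gys2 (0.00568), Ppp1r3g (0.0177) and Phka2 (0.0253). For Ppp1r3b the order was transgenic (7.01 ± 0.44, SD, n = 4) below wild type (8.56 ± 0.17) and metformin-treated (8.70 ± 0.39), and the latter neighbours overlapped. For Ppp1r3g it was wild type (6.91 ± 0.20), metformin-treated (7.40 ± 0.33) and then transgenic (9.71 ± 1.80). For Gys2 it was wild type (11.54 ± 0.18), metformin-treated (12.07 ± 0.20) and transgenic (12.40 ± 0.28), of which the last 2 overlapped. For Phka2 wild type (8.92 ± 0.074) and transgenic (8.96 ± 0.085) overlapped and metformin-treated livers stood above them (9.24 ± 0.14).

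The genes most like these over the 12 livers were named by Pearson correlation, as a description that reflects the same group differences and the same livers. Most like Ppp1r3b were Mmachc (r = 0.946), Spag8 (0.944), the malin gene Nhlrc1 (0.942), Xylb (0.942) and 2310079G19Rik (0.942). Most like Gys2 were Gal3st1 (0.940), Ptbp3 (0.939), Ugcg (0.938), Cerkl (0.936) and Lpin2 (0.934). Most like Ppp1r3g were Sesn2 (0.980), Maff (0.976), Ifit2 (0.971), Fbp2 (0.971) and Fst (0.970). Of these, Nhlrc1 belongs to the wider glycogen list that follows.

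The wider list of glycogen genes held 23 further symbols, of which 22 had a row with 1 gene and 20 were tested. Phkg1 and Ppp1r3a, the muscle forms of the kinase's catalytic subunit and of the targeting subunit, were among the dimmest genes and were not tested. Between transgenic and wild type livers 1 of the 20 rose and 2 fell, against the 14.1% of all tested genes. The brain phosphorylase Pygb rose, and the Lafora disease genes Epm2a (laforin, a glycogen phosphatase) and Nhlrc1 (malin, its ubiquitin ligase partner) fell. Leaving out 1 array gave between 1 (without transgenic replicate 3) and 7 called genes (without transgenic replicate 2), with 6 without metformin-treated replicate 3. Those fits called 764, 4004 and 3254 of all 14953 tested genes. The median log2 difference over the 20 was -0.11, and over all tested genes -0.013.

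Pygb, an isoform of phosphorylase found mainly outside the adult liver, read 7.29, 6.95, 7.06 and 7.16 in wild type livers and 10.08, 7.58, 9.56 and 9.07 in transgenic livers. Replicate 2 was again the lowest of its group, though above every wild type liver. The difference was 1.95 ± 0.40 (adjusted p = 0.0112 in limma), 3.88-fold, and 2.45 without replicate 2. It passed with the sex covariate (2.11, adjusted p = 0.0388). With metformin Pygb read 7.44, 7.04, 6.84 and 7.07, which is -1.97 ± 0.40 against untreated transgenic livers (adjusted p = 0.00487) and -0.017 ± 0.40 against wild type. The SD of Pygb was 0.25 in metformin-treated, 0.14 in wild type and 1.08 in untreated transgenic livers. The SE of metformin-treated against wild type livers, from the spread pooled over the groups, can therefore be too large. In both comparisons with untreated transgenic livers the SE can be too small. In transgenic replicates 1, 3 and 4, Pygb was high where the liver form Pygl was low. The Kupffer cell marker mean was also lower in transgenic replicate 2 (8.79) than in those 3, up to 9.67, and its part in the Pygb values was not tested. The muscle forms of the enzymes did not pass in any comparison. Gys1 differed by -0.16 ± 0.096, Pygm by -0.037 ± 0.076 and the kinase subunit Phka1 by -0.11 ± 0.083 between transgenic and wild type livers, and the sign of Pygm changed with quantile normalization and median centring.

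**Figure D4:**
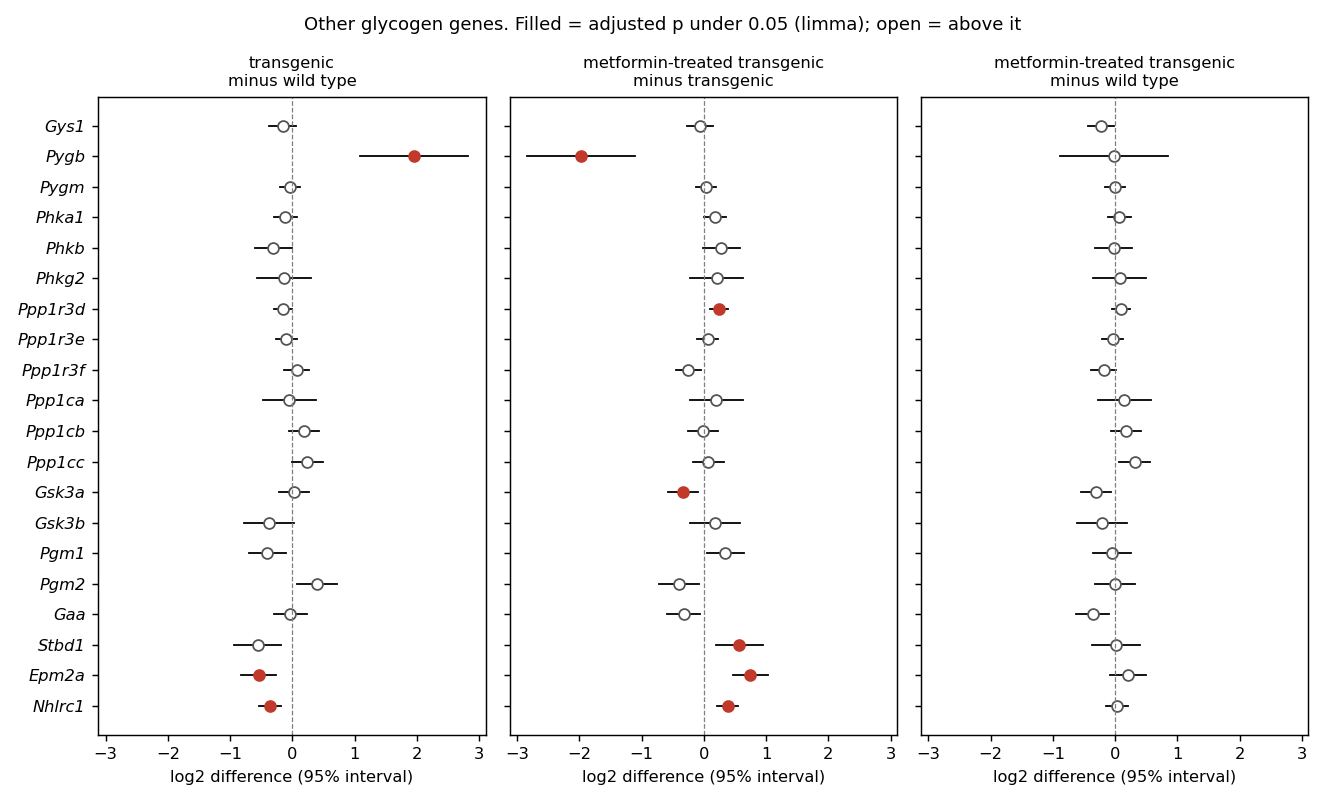
Log2 difference with 95% interval from limma of the 20 other tested glycogen genes in the 3 comparisons (4 livers per group); filled points passed an adjusted p of 0.05. Pygb has the largest differences (1.95 and -1.97), and no point is filled between metformin-treated transgenic and wild type livers.

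Epm2a read 6.60, 6.63, 6.56 and 6.73 in wild type and 5.85, 6.50, 5.86 and 6.16 in transgenic livers, a difference of -0.54 ± 0.13 (adjusted p = 0.0201 in limma). Nhlrc1 read 7.67, 7.84, 7.72 and 7.64 against 7.38, 7.40, 7.26 and 7.39, a difference of -0.36 ± 0.080 (adjusted p = 0.016). Neither gene's groups overlapped, and transgenic replicate 2 was the highest of its group for both. Nhlrc1 passed with the sex covariate (adjusted p = 0.0391) and Epm2a did not (0.0781). Without transgenic replicate 3 neither passed in limma (adjusted p = 0.0668 for Epm2a and 0.0534 for Nhlrc1), and the Epm2a call also ended without transgenic replicate 1 (0.0558) and without wild type replicate 4 (0.0566).

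Between metformin-treated and untreated transgenic livers 4 of the 20 rose and 2 fell, against 24.7% of all tested genes. Those that rose were Epm2a (0.75 ± 0.13), Nhlrc1 (0.38 ± 0.080), Stbd1, a protein that anchors glycogen to membranes (0.57 ± 0.17), and the targeting subunit Ppp1r3d (0.25 ± 0.068). Pygb fell by 1.97 and the synthase kinase Gsk3a by 0.33 ± 0.11 (adjusted p = 0.0484 in limma). The Gsk3a call held in only 2 of the 12 fits without 1 array, those without transgenic replicate 2 and without wild type replicate 2, and its adjusted p reached 0.129 without transgenic replicate 3. Stbd1 was called in 8 of the 12, and not without replicate 1 or 3 of either transgenic group. Ppp1r3d was called in 8, and not without transgenic replicate 1 or 3 or metformin-treated replicate 2 or 4. Epm2a, Nhlrc1 and Pygb were called in each of the 12. With the sex covariate limma called 0 of the 20 (7 at an unadjusted p under 0.05), against 0.548% of all tested genes. With it and without transgenic replicate 2, limma called 5 of the 20, and 1845 of all 14953 tested genes. Without a covariate the number called among the 20 went to 3 without transgenic replicate 1 and without transgenic replicate 3. Those fits called 2780 and 2419 of all tested genes. Between metformin-treated transgenic and wild type livers 0 of the 20 were called by limma, against 2.43% of all tested genes. Of the 20, 4 had an unadjusted p under 0.05.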

How the data were processed

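The members and gene lists were chosen with earlier results of these data known. The deposited table holds log2 signals for 35556 rows and 12 arrays; per the submitters' processing notes the authors used Affymetrix Expression Console; its version, the summarising method and the normalization were not given in the sources used here. RNA came from livers in RNAlater, per the labels' protocols. Values were used as deposited. Rows were named through the platform annotation: 21789 with 1 gene, 1621 with several and 12146 unnamed, and Entrez identifiers matched 21698 rows to RefSeq, changing 0 symbols. The row with the highest mean stood for a gene, which left 19938 genes, and the dimmest 25% were left out.

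Differences were tested two-sided with limma 3.58.1 in R 4.3.3 (lmFit, eBayes, all 12 arrays, no covariate), with Benjamini-Hochberg adjustment over 14953 genes and a threshold of 0.05. Values after ± are standard errors unless called SD. The p-values rest on the labels calling samples biological replicates, and the number of arrays limits precision. The naming rule covers the 9 genes, called genes and muscle or brain isoforms of the wider list, and the 5 genes most like the 3 members of smallest F test p. Alternatives were other filters, row averaging, scalings, eBayes settings, the sex covariate, weights per array, a block for replicate number, the 8 arrays compared and each array left out; fits by Xist level, and the sex covariate without transgenic replicate 2, were added after seeing the data. The procedure was tested on simulated data. No pairing of arrays across groups by replicate number was seen, though the check cannot settle whether there was one.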

Additional observations from a re-analysis of the deposited data

Results flagged for a closer look

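Among 60 sets of 4 livers (20 named genes in 3 groups), 7 had 1 liver far from the other 3, where chance alone flags about 1 set in 20. For Ppp1r3g, wild type replicate 2 read 6.62 and the others 6.99 to 7.03. For Gyg, wild type replicate 3 read 7.59 and the others 7.83 to 7.85. Gsk3a had such a liver in transgenic replicate 2 (9.92, others 10.25 to 10.32) and in metformin-treated replicate 3 (9.65, others 9.93 to 9.96). For Nhlrc1, transgenic replicate 3 read 7.26 and the others 7.38 to 7.40. For Gys1, transgenic replicate 1 read 6.14 and the others 6.33 to 6.36, and for Phka1 metformin-treated replicate 3 read 6.92 and the others 7.09 to 7.12.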

How the results depend on the processing

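Of the 9 genes, the number called between transgenic and wild type livers was 3 as reported, 7 with array weights, 5 with only the 8 arrays compared, 0 with the low-Xist livers alone (5 at an unadjusted p under 0.05) and 5 with the sex covariate and without transgenic replicate 2; leaving out single arrays gave 2 to 6. Between the transgenic groups it was 3 as reported, 6 with array weights, 0 with the sex covariate (3 if also without transgenic replicate 2) and 1 with only the 8 arrays, with 1 to 5 when single arrays were left out. Between metformin-treated transgenic and wild type livers it was 0, with 1 under median centring, 3 with array weights and 0 to 2 when single arrays were left out. By the F test it was 4, with 8 under array weights, 2 with the sex covariate and 3 to 6 without single arrays. The cause of these changes was not tested. Between transgenic and wild type livers, the fit with the sex covariate and without transgenic replicate 2 called 3013 of all tested genes. The fit of the low-Xist livers called 9. Over all genes the calls between transgenic and wild type livers went from 2111 to 4818 with array weights and to 650 with the sex covariate (764 to 4004 without single arrays), between the transgenic groups from 3695 to 6428 and to 82 (1845 with the sex covariate and without transgenic replicate 2; 2419 to 4828 without single arrays), and between metformin-treated transgenic and wild type livers from 364 to 3057 and to 14 (70 to 775), with 135 under the replicate block. Median centring moved the share of higher genes among the called from 56.5% to 74.5% between transgenic and wild type livers and from 42.8% to 30.0% between the transgenic groups. The wider list went from 3 to 5 called genes under quantile normalization and to 9 with array weights, and to 0 in the low-Xist livers (6 at an unadjusted p under 0.05 in limma), between transgenic and wild type livers, and from 6 to 13 with array weights, 3 with only the 8 arrays and 0 with the sex covariate (5 without transgenic replicate 2 as well) between the transgenic groups; against wild type, metformin-treated livers gave 0, and 3 with array weights. Same-numbered arrays had deviations that correlated between -0.18 and 0.24 over 12 pairs, 4 of them above 0.1. Different-numbered arrays correlated between -0.32 and 0.38 over 36 pairs, 8 of them above 0.1. No pairing by number was seen, but correlations this weak cannot settle whether the numbers pair the livers. The replicate block gave 3, 3, 0 and 4 called genes of the 9, and for Ppp1r3g a difference of 2.80 (adjusted p = 0.028 in limma). Signs changed only for values that were not called. These were Phka2 (-0.035), Gsk3a (-0.022) and Pygm (0.038) between transgenic and wild type livers under quantile normalization, Pygm (0.030) under median centring, Gsk3a with the sex covariate (-0.038) and the low-Xist livers (-0.068), and Gbe1 with the sex covariate and without transgenic replicate 2 (-0.029). Between the transgenic groups they were Gbe1 under quantile normalization (9.4e-04), array weights (0.017), the sex covariate (0.10) and the sex covariate without transgenic replicate 2 (0.16), and Pygm under quantile normalization (-0.040) and median centring (-0.029). Against wild type, metformin-treated livers changed sign for Pygb under quantile normalization (0.024), Stbd1 with array weights (-0.10), and Pygm under median centring (0.0019), array weights (0.015) and the high-Xist livers (7.4e-04). Leaving out single arrays turned the sign of Gsk3a between transgenic and wild type livers (-0.023 to 0.12) and of Gbe1 (-0.18 to 0.048) and Pygm (-0.017 to 0.067) between the transgenic groups. Against wild type it did so for Ppp1r3b (-0.043 to 0.25), Pygb (-0.13 to 0.070), Stbd1 (-0.089 to 0.13), Nhlrc1 (-0.019 to 0.071) and Pygm (-0.054 to 0.032) in metformin-treated livers.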

Other observations

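Genes that handle glucose 6-phosphate, the metabolite that links glycogen to blood glucose, were also read; 4 of 5 listed had a row with 1 gene. Between transgenic and wild type livers 2 of the 4 fell, against 6.15% of all tested genes: the glucose 6-phosphate transporter gene Slc37a4 (-0.83 ± 0.23, adjusted p = 0.0318 in limma) and Gckr, whose product acts in hepatic glucose phosphorylation (-1.10 ± 0.23, adjusted p = 0.013). Both rose between untreated and metformin-treated transgenic livers, by 1.08 ± 0.23 and 1.36 ± 0.23, against 10.6% of all tested genes that were higher, in a comparison that shares the untreated livers. Transgenic replicate 2 read 11.54 for Slc37a4 and 10.26 for Gckr, the highest of its group for both, and its Slc37a4 value lay inside the wild type range of 11.42 to 11.90. The Slc37a4 call between transgenic and wild type livers held in 6 of the 12 fits without 1 array and ended without transgenic replicate 1, 3 or 4 and without wild type replicate 1, 2 or 4 (highest adjusted p = 0.0849 in limma), while that of Gckr held in all 12. With the sex covariate neither Slc37a4 (adjusted p = 0.0948 in limma) nor Gckr (0.0599) passed between transgenic and wild type livers, nor did they between the transgenic groups (adjusted p = 0.153 and 0.119), unless transgenic replicate 2 was also omitted (0.0154 and 0.00193).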
